A study of Mus musculus with 4 samples.

Results

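The expression of 34 genes that mark astrocytes was followed in cultured mouse neural stem cells with and without Mettl4. The genes were listed by symbol and found in the deposited counts through their Ensembl identifiers, and all 34 of the 34 symbols matched 1 of the 55414 genes in the files. The samples were 2 libraries labelled Mettl4 knockout, set against 2 libraries labelled wild type. All 4 libraries were from primary neural stem cells of the embryonic cortex, taken from E14.5 embryos, grown as neurospheres in medium with EGF and basic FGF and then plated as a monolayer. The knockout allele, the mouse strain, the sex and the number of embryos behind a library are not given in the labels, which also do not say whether the replicates were separate cultures. The p-values below thus cover no more than the spread among these 4 libraries, part of which may be technical.

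Astrocytes are the glia that take up glutamate and potassium, couple to one another through gap junctions and contact blood vessels with their end feet. They arise from radial glia and other neural stem cells after neurons have formed, when JAK-STAT and Notch signals and the nuclear factor I (NFI) transcription factors open the glial programme. Many genes used as astrocyte markers are already transcribed in radial glia, so their RNA in a neural stem cell culture does not by itself mark a mature astrocyte. The Mettl4 protein is an adenine methyltransferase. In bulk RNA of this kind, fewer cells of a type and less RNA per cell cannot be told apart.

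The libraries held 18150389 and 19310668 counts in the knockout, and 12812064 and 16883734 counts in the wild type. Mettl4 RNA stood at 15.6 and 17.6 CPM (the count scaled to a common library size with TMM factors) in the knockout libraries, against 63.8 and 66.6 CPM in the wild type libraries (log2 fold change -1.97, SE 0.17, edgeR quasi-likelihood test, adjusted p = 0.0051). The sources used here do not say which part of the gene was deleted. Wild type replicate 1 stood apart in Y-linked RNA. Over 4 Y-linked genes there were 2 and 0 counts in the knockout libraries and 2688 and 0 counts in the wild type libraries. The 2 wild type libraries thus did not hold the same mix of male and female cells. The part of this in the values below was not tested. Knockout replicate 2 stood apart in the astrocyte genes themselves and in Pdk1 and Bnip3, which respond to low oxygen, as described below. Values without a library are given beside many of the members that it moved. For members whose sign changed, the ranges stand in the closing section.

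The promoters of 4 of these genes are shown because the members tended to be low or high in the same libraries, as described below, and because STAT and NFI factors are known to act at astrocyte genes. Each run is the 250 bases before the RefSeq gene start in GRCm38.p6, printed 5′ to 3′ on the strand of the gene. Capitals mark matches to TTCNNNGAA (the STAT motif) or to TTGGC on either strand (the core of the NFI motif, read as GCCAA on the other strand). Acsbg1 (fatty acid activation; chr9:54661886-54662135, minus strand) and Pla2g7 (a secreted phospholipase; chr17:43568201-43568450, plus strand) held a STAT match. Acsbg1 also held NFI core matches. S100b (a calcium-binding protein; chr10:76253586-76253835, plus strand) held 3 NFI core matches, and Aldh1l1 (folate metabolism; chr6:90550543-90550792, plus strand) held neither. A link between these matches and the fold changes was not tested.
Acsbg1: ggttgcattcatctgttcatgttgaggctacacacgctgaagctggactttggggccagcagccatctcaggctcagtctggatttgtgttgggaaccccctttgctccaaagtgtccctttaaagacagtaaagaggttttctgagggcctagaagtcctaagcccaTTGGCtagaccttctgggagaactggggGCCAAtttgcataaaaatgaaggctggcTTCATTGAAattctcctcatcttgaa
Pla2g7: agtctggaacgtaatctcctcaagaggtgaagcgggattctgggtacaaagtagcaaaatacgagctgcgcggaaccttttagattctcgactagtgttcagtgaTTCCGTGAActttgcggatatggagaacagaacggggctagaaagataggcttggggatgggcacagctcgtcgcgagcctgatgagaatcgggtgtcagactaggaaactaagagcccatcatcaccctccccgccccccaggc
S100b: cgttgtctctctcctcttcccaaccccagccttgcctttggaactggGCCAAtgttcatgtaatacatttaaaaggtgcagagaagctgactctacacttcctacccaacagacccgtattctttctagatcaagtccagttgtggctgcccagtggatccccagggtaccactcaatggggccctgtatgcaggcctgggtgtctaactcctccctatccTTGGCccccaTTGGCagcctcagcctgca
Aldh1l1: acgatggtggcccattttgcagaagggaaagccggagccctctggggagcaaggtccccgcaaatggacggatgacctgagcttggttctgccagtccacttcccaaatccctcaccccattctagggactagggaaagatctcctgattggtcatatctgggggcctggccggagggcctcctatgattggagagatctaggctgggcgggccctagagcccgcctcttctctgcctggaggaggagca
Of the 34 genes, 28 had an entry in the promoter table, with 36 start sites. TTCNNNGAA was found in 4 of the 36 windows (11.1%), at Acsbg1, Nfix, Ntsr2 and Pla2g7, against 7.02% of all 32851 windows of the same length. TTGGC was found in 14 of the 36 windows (38.9%), against 41.5% of all windows. The full NFI site, which is TTGGC followed by 5 bases of any kind and GCCAA, was in 0 of the 36 windows and in 12 of all windows, and each such site would also count as a TTGGC match. These matches describe the letters in these windows and do not show that a factor binds there.

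The level of the astrocyte genes spanned a wide range in these cultures. Per kb of exon (exon lengths from GENCODE vM21), 18 of the 34 members were at or above 10 CPM per kb as a mean over the 4 libraries and 5 were below 1 CPM per kb, and the median of the tested genes with a length was 3.78 CPM per kb. Cst3, which encodes the secreted protease inhibitor cystatin C, was highest with a mean of 137 CPM per kb, followed by Mt3 (80.4 CPM per kb), Acsbg1 (67.7 CPM per kb), Glul (64.3 CPM per kb) and Mlc1 (60.3 CPM per kb). Along this order, the 4 libraries of a gene overlapped those of the next gene for 29 of the 33 neighbouring pairs. The exceptions were Cst3 over Mt3, Aqp4 over Htra1, Gpr37l1 over Ntsr2 and Cldn10 over Gjb6. Acsbg1 measured 67.0 and 57.4 CPM per kb in the knockout libraries and 74.7 and 71.7 CPM per kb in the wild type libraries, and Glul 65.0 and 61.2 CPM per kb in the knockout libraries and 65.4 and 65.5 CPM per kb in the wild type libraries.

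The low end held several standard astrocyte markers. Gfap, the intermediate filament protein of astrocytes, had a mean of 0.801 CPM per kb, above 16.5% of the tested genes. Ntsr2, a neurotensin receptor of astrocytes, had 0.876 CPM per kb, Clu, the secreted chaperone clusterin, 0.747 CPM per kb, and Cldn10, a claudin, 0.567 CPM per kb. Gjb6, which encodes the gap junction protein connexin 30, was at 0 and 0 counts in the knockout libraries and at 1 and 4 counts in the wild type libraries. The counts of 0 allow levels of up to 0.158 and 0.164 CPM in knockout replicates 1 and 2 (3 counts, counting error only). The groups could thus not be told apart for Gjb6 at this depth, and it was the sole member under the low-count filter. Other genes known from mature astrocytes were higher in this order, with Slc1a2 above 72.3% of the tested genes, Mlc1 above 96.5% and Glul above 96.7%.

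**Figure D1:**
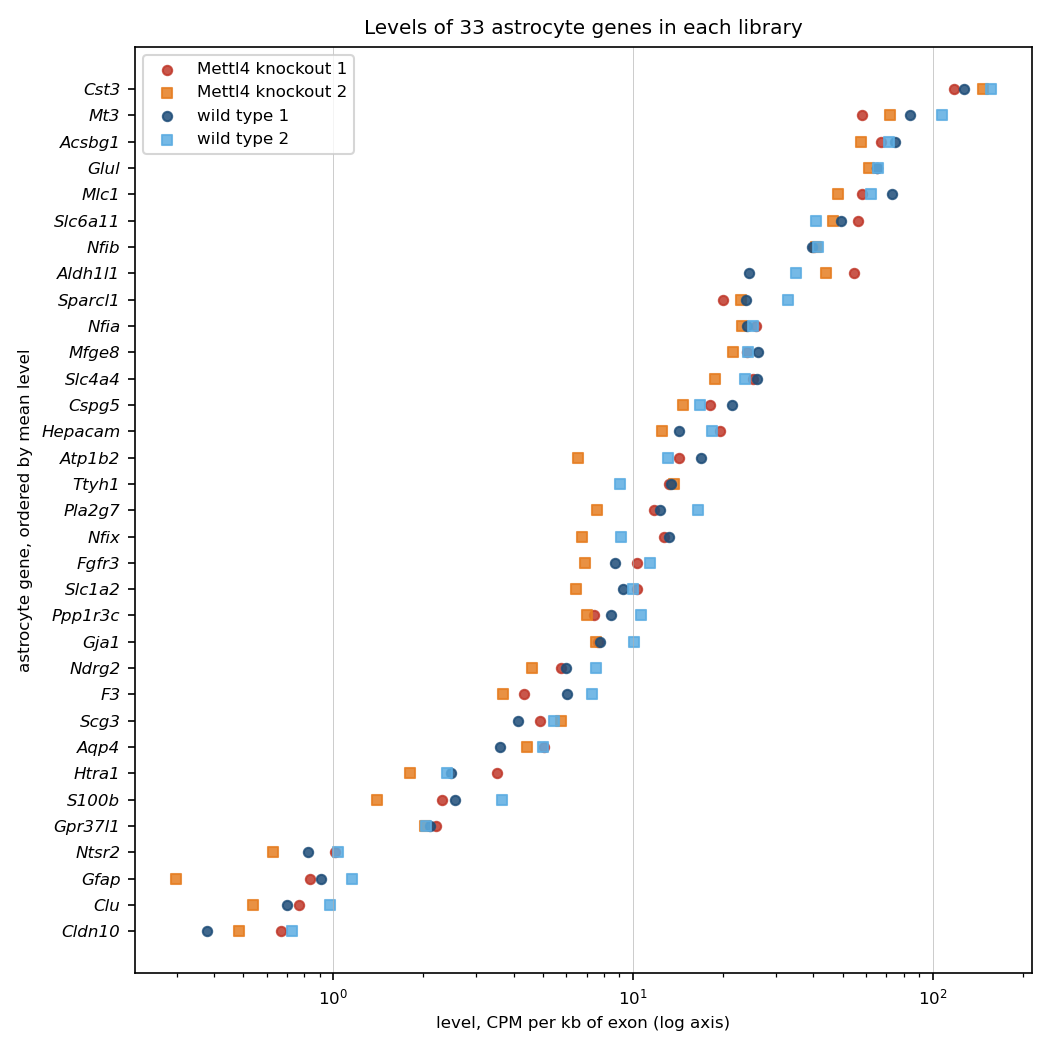
Level of the 33 tested astrocyte genes in each library, in CPM per kb of exon on a log axis, ordered by the mean over 4 libraries; circles are replicate 1 and squares replicate 2. Cst3 lies at the top with a mean of 137 CPM per kb and Cldn10 at the bottom with 0.567 CPM per kb, and the libraries of a gene overlap those of the next gene for 29 of the 33 neighbouring pairs among all 34 members.

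No astrocyte gene differed between knockout and wild type past the threshold. Of the 33 members tested, 0 were called at an adjusted p under 0.05 (edgeR quasi-likelihood test, Benjamini-Hochberg over 19912 genes), where 0.00502% of all genes were called, and each member had an adjusted p of 0.9999. DESeq2, which called 0.0301% of all genes, and limma-voom, which called 0.00502%, called 0 members as well. A minimum of 1 CPM in 2 libraries (0.00562% of all genes called) and a replicate block (0.0452%) likewise gave 0 called members. At an unadjusted p under 0.05 there were 5 members, where 2.77% of all genes passed. Of these, 4 were lower in the knockout (all genes, 1.62%) and 1 was higher (all genes, 1.15%). With the replicate block there were 12 lower and 1 higher (all genes in either direction, 7.83%), and without a low-count filter 8 lower and 1 higher (all genes, 3.06%). The log2 fold change, knockout minus wild type, was negative for 25 of the 33 members and positive for 8, where 50.3% of all genes tested were negative and 49.7% positive. The median over the members was -0.19, beside -0.0013 over all genes tested. Both knockout libraries lay below both wild type libraries for 13 members, where this held for 14.9% of all genes, and above them for 1 member, where this held for 12.5%. The groups thus did not overlap for 14 members, where 27.4% of all genes did not overlap. The median standard error of a member's log2 fold change was 0.20, and the fold changes ran from -0.86 to 0.73. The members with the smallest p or a call under an alternative were Aldh1l1 (ENSMUSG00000030088, chromosome 6), Mt3 (ENSMUSG00000031760, chromosome 8), F3 (ENSMUSG00000028128, chromosome 3), Pla2g7 (ENSMUSG00000023913, chromosome 17), Sparcl1 (ENSMUSG00000029309, chromosome 5) and Atp1b2 (ENSMUSG00000041329, chromosome 11).

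**Figure D2:**
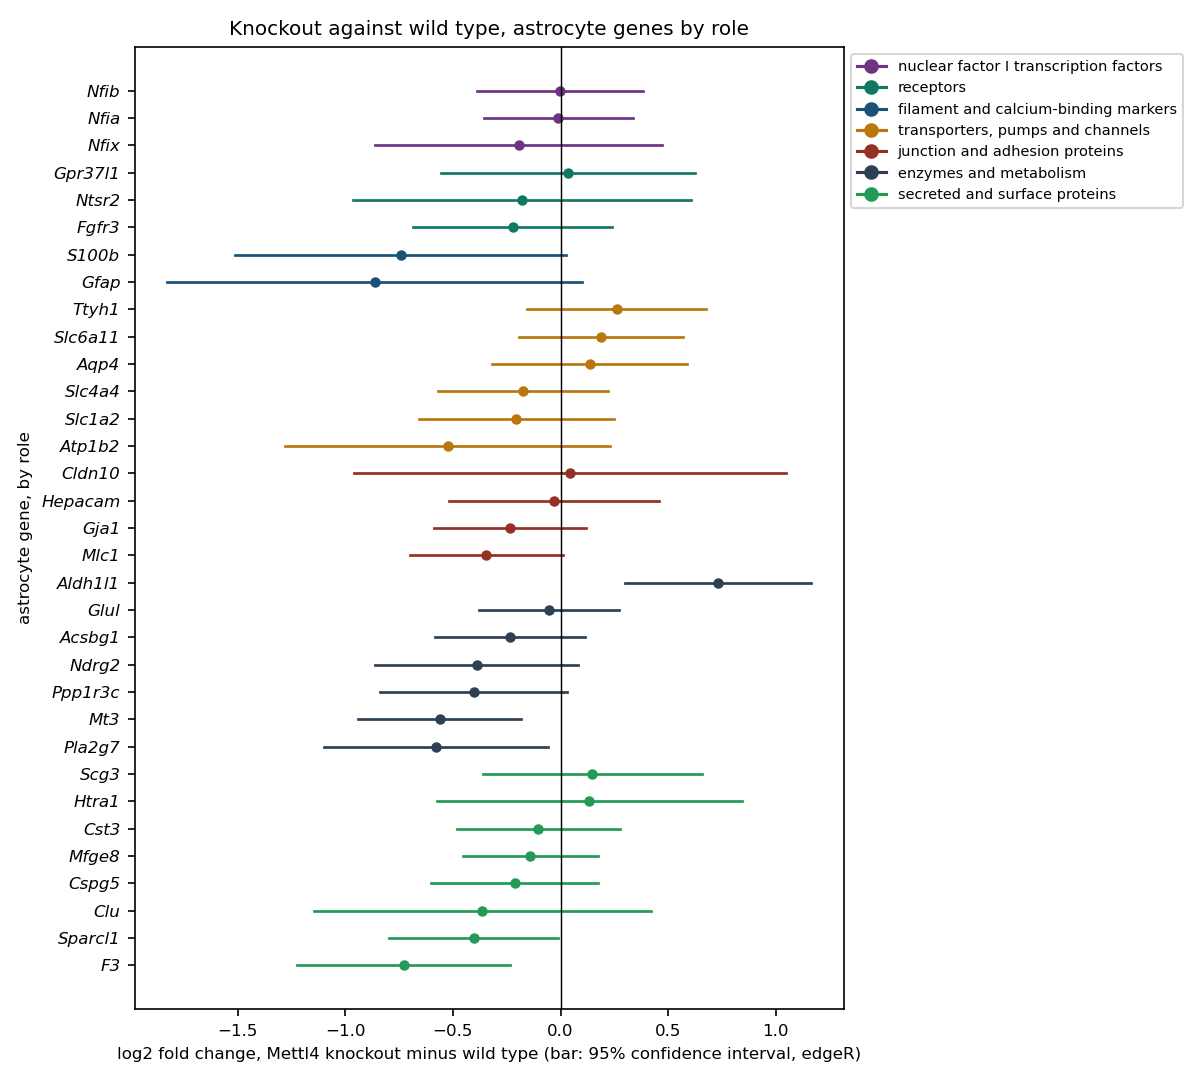
Log2 fold change of the 33 tested astrocyte genes, Mettl4 knockout minus wild type, grouped by role, with points for the edgeR estimate and bars for its 95% confidence interval. Points lie left of 0 for 25 genes and right of 0 for 8, and the interval is clear of 0 for Aldh1l1 on the right and for Mt3, F3, Pla2g7 and Sparcl1 on the left, with no gene called after adjustment.

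The NFI transcription factors, which act early in astrocyte formation, were abundant and close to equal between the groups. Nfib measured 599 and 611 CPM in the knockout libraries, against 593 and 621 CPM in the wild type libraries (log2 fold change -0.0040, SE 0.17, 95% interval -0.39 to 0.38). Nfia measured 281 and 251 CPM in the knockout libraries, against 261 and 275 CPM in the wild type libraries (log2 fold change -0.010, 95% interval -0.36 to 0.34). For both genes the groups overlapped, and the sign changed with the scaling factors, to 0.008 for Nfib and 0.001 for Nfia with RLE factors. Nfix varied more, at 93.5 and 49.9 CPM in the knockout libraries and 96.8 and 67.3 CPM in the wild type libraries. Its replicate 2 was low in both groups, and the log2 fold change was -0.19 (SE 0.29).

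Among the receptors, Fgfr3, an FGF receptor of glial progenitors and astrocytes, measured 74.1 and 49.6 CPM in the knockout libraries and 62.3 and 81.8 CPM in the wild type libraries (log2 fold change -0.22, SE 0.21). The groups overlapped, with knockout replicate 2 lowest. An antisense transcript, G630022F23Rik, overlaps 13.9% of its exon length and had 109 and 65 counts in the knockout libraries and 72 and 133 counts in the wild type libraries. Because the counting's strand setting is not known, reads of such pairs cannot be told apart. Fgfr3 also has a named pseudogene, Fgfr3-ps. Gpr37l1, an orphan receptor of astrocytes, was at 5.01 and 4.60 CPM in the knockout libraries and 4.76 and 4.63 CPM in the wild type libraries, while Ntsr2 was at 3.17 and 1.97 CPM in the knockout libraries and 2.57 and 3.23 CPM in the wild type libraries. Knockout replicate 2 was the lowest library for each of these 3 receptors.

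The classical markers Gfap and S100b were low in level and lower in both knockout libraries. Gfap had 67 and 23 counts in the knockout libraries and 51 and 80 counts in the wild type libraries, which is 3.54 and 1.26 CPM against 3.85 and 4.88 CPM. The knockout mean was 2.40 ± 1.61 CPM and the wild type mean 4.36 ± 0.727 CPM (SD, n = 2 each). Its log2 fold change was -0.86 (SE 0.43), the most negative of the members, and it rested on knockout replicate 2: without that library it was -0.31, and without knockout replicate 1 it was -1.79. S100b measured 3.43 and 2.08 CPM in the knockout libraries and 3.77 and 5.43 CPM in the wild type libraries (log2 fold change -0.74, SE 0.35). The groups did not overlap for either gene, but knockout replicate 1 lay close under wild type replicate 1 in both. For S100b the value was -0.43 without knockout replicate 2, -0.44 without wild type replicate 2 and -1.15 without knockout replicate 1.

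Transporters, pumps and channels had no common direction, with 3 positive and 3 negative log2 fold changes. The groups did not overlap for 0 of these 6 genes, where 27.4% of all genes did not overlap. The sodium pump subunit gene Atp1b2 measured 58.0 and 26.8 CPM in the knockout libraries, against 68.6 and 53.4 CPM in the wild type libraries (log2 fold change -0.52, SE 0.33). Its low value was that of knockout replicate 2. Without knockout replicate 1 it was called, at a log2 fold change of -1.19 (edgeR adjusted p = 0.0067), in a fit that called 0.236% of all genes and rests on a lone knockout library assumed to vary like the wild type. Without knockout replicate 2 the log2 fold change was -0.070. Slc1a2, the main glutamate transporter of mature astrocytes, measured 135 and 84.6 CPM in the knockout libraries and 122 and 132 CPM in the wild type libraries. Slc4a4, a sodium bicarbonate cotransporter, measured 273 and 204 CPM in the knockout libraries and 281 and 257 CPM in the wild type libraries. In both genes knockout replicate 2 was the lowest library.

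The other 3 genes of this role had positive values. Slc6a11, a GABA transporter of astrocytes, measured 284 and 235 CPM in the knockout libraries and 250 and 205 CPM in the wild type libraries (log2 fold change 0.19, SE 0.17), and its value was 0.044 without knockout replicate 1 and 0.063 without wild type replicate 2. Aqp4, the water channel of astrocyte end feet, measured 31.4 and 27.5 CPM in the knockout libraries and 22.4 and 31.2 CPM in the wild type libraries (log2 fold change 0.14, SE 0.20). Ttyh1, a membrane protein of the tweety family that is abundant in neural stem cells and astrocytes, measured 84.2 and 87.4 CPM in the knockout libraries and 85.7 and 57.7 CPM in the wild type libraries. Wild type replicate 2 alone was low for Ttyh1, and without it the log2 fold change was 0.013, against 0.26 with all 4 libraries.

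Among genes of junctions and adhesion, Mlc1, a membrane protein of astrocyte end feet, had the lowest p. It measured 162 and 135 CPM in the knockout libraries, against 204 and 174 CPM in the wild type libraries (log2 fold change -0.34, SE 0.16), with -0.22 without knockout replicate 2 and -0.23 without wild type replicate 1. Gja1, which encodes the gap junction protein connexin 43, measured 78.6 and 77.1 CPM in the knockout libraries and 79.4 and 104 CPM in the wild type libraries (log2 fold change -0.23, SE 0.16). The groups did not overlap for Mlc1 and Gja1, but knockout replicate 1 and wild type replicate 1 differed by less than 1 CPM for Gja1, and without wild type replicate 2 its log2 fold change was -0.017. Hepacam, an adhesion protein that binds Mlc1, measured 65.2 and 41.7 CPM in the knockout libraries and 47.7 and 61.3 CPM in the wild type libraries, with overlapping groups. Cldn10 was at 1.74 and 1.26 CPM in the knockout libraries and 0.981 and 1.89 CPM in the wild type libraries.

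Enzymes and metabolic genes held the member with the largest positive value. They also held 7 of the 14 members whose groups did not overlap, where 27.4% of all genes did not overlap. Aldh1l1, a folate enzyme widely used to mark astrocytes, measured 247 and 198 CPM in the knockout libraries, against 110 and 158 CPM in the wild type libraries. Both knockout libraries were above both wild type libraries, and wild type replicate 1 was the lowest. The knockout mean was 223 ± 34.3 CPM and the wild type mean 134 ± 33.6 CPM (SD, n = 2 each), with a log2 fold change of 0.73 (SE 0.20, 95% interval 0.30 to 1.17, unadjusted p = 0.0037, edgeR adjusted p = 0.9999). Leaving out each library in turn gave log2 fold changes from 0.50 to 1.02, and without a low-count filter the gene was called (edgeR adjusted p = 0.011, with 0.124% of all genes called). An antisense transcript, Gm15756, overlaps 11.05% of the exon length of Aldh1l1. It had 23 and 18 counts in the knockout libraries and 5 and 7 counts in the wild type libraries, beside 4676 and 3623 counts and 1461 and 2587 counts of Aldh1l1 itself.

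The other 6 genes of this role had negative log2 fold changes, and for 6 of these 6 both knockout libraries lay below both wild type libraries (all genes, 14.9%), though by little for Glul. Mt3, a zinc-binding metallothionein of the brain, measured 61.8 and 76.6 CPM in the knockout libraries, against 89.7 and 115 CPM in the wild type libraries (log2 fold change -0.56, SE 0.17, 95% interval -0.94 to -0.18, unadjusted p = 0.0078). Leaving out each library in turn gave values from -0.73 to -0.36. Pla2g7, which encodes the phospholipase that inactivates platelet-activating factor, measured 34.1 and 22.0 CPM in the knockout libraries and 35.8 and 47.9 CPM in the wild type libraries (log2 fold change -0.58, SE 0.23, unadjusted p = 0.032). Knockout replicate 1 was near wild type replicate 1, and without wild type replicate 2 or knockout replicate 2 the value was smaller, down to -0.30. An antisense transcript, 1700071M16Rik, overlaps 11.0% of its exon length, with 64 and 49 counts in the knockout libraries and 61 and 109 counts in the wild type libraries.

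Smaller differences were seen for the remaining enzymes. Ppp1r3c, which targets a phosphatase to glycogen, measured 20.2 and 19.1 CPM in the knockout libraries and 22.9 and 29.0 CPM in the wild type libraries (log2 fold change -0.40, SE 0.20). Ndrg2, a cytoplasmic protein enriched in astrocytes, measured 19.5 and 15.6 CPM in the knockout libraries and 20.4 and 25.6 CPM in the wild type libraries (log2 fold change -0.39, SE 0.21). Acsbg1, an acyl-CoA synthetase, measured 241 and 207 CPM in the knockout libraries and 269 and 258 CPM in the wild type libraries (log2 fold change -0.23, SE 0.16). Glul, the glutamine synthetase that turns glutamate into glutamine, was nearly level at 216 and 203 CPM in the knockout libraries and 217 and 218 CPM in the wild type libraries (log2 fold change -0.053, 95% interval -0.38 to 0.27). These values were smaller without a single library, at -0.21 for Ppp1r3c and -0.20 for Ndrg2 without wild type replicate 2, and at -0.13 for Acsbg1 and -0.009 for Glul without knockout replicate 2.

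Of 8 secreted and surface proteins, 6 had negative and 2 positive values. F3, the cell-surface tissue factor that starts coagulation and is found on astrocytes, measured 11.0 and 9.30 CPM in the knockout libraries, against 15.2 and 18.4 CPM in the wild type libraries. Every knockout library was below every wild type library, with a log2 fold change of -0.73 (SE 0.22, 95% interval -1.22 to -0.23, unadjusted p = 0.0082) and values from -0.86 to -0.57 when each library was left out. Sparcl1, a secreted matrix protein that promotes synapse formation, measured 58.4 and 67.5 CPM in the knockout libraries and 70.2 and 96.3 CPM in the wild type libraries (log2 fold change -0.40, SE 0.18, unadjusted p = 0.045). Without wild type replicate 2, its highest library, the value was -0.14. Mfge8, a secreted bridge to phagocytes, measured 113 and 102 CPM in the knockout libraries and 123 and 114 CPM in the wild type libraries (log2 fold change -0.14, SE 0.14), with -0.065 without knockout replicate 2 and -0.086 without wild type replicate 1.

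For the other 5 genes of this role the groups overlapped. Cst3 measured 149 and 187 CPM in the knockout libraries and 162 and 198 CPM in the wild type libraries, with replicate 2 above replicate 1 in both groups. Cspg5, a chondroitin sulphate proteoglycan, measured 182 and 148 CPM in the knockout libraries and 215 and 168 CPM in the wild type libraries, with the opposite order of replicates. The log2 fold change of Cspg5 was -0.21, and -0.024 without wild type replicate 1. Clu measured 2.64 and 1.86 CPM in the knockout libraries and 2.42 and 3.35 CPM in the wild type libraries. The log2 fold change of Clu was -0.36, and -0.09 without wild type replicate 2. The protease gene Htra1 measured 10.1 and 5.20 CPM in the knockout libraries and 7.10 and 6.89 CPM in the wild type libraries, so that the knockout libraries lay on either side of the wild type ones. Scg3, a granin of secretory granules, measured 13.4 and 15.8 CPM in the knockout libraries and 11.3 and 14.9 CPM in the wild type libraries.

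**Figure D3:**
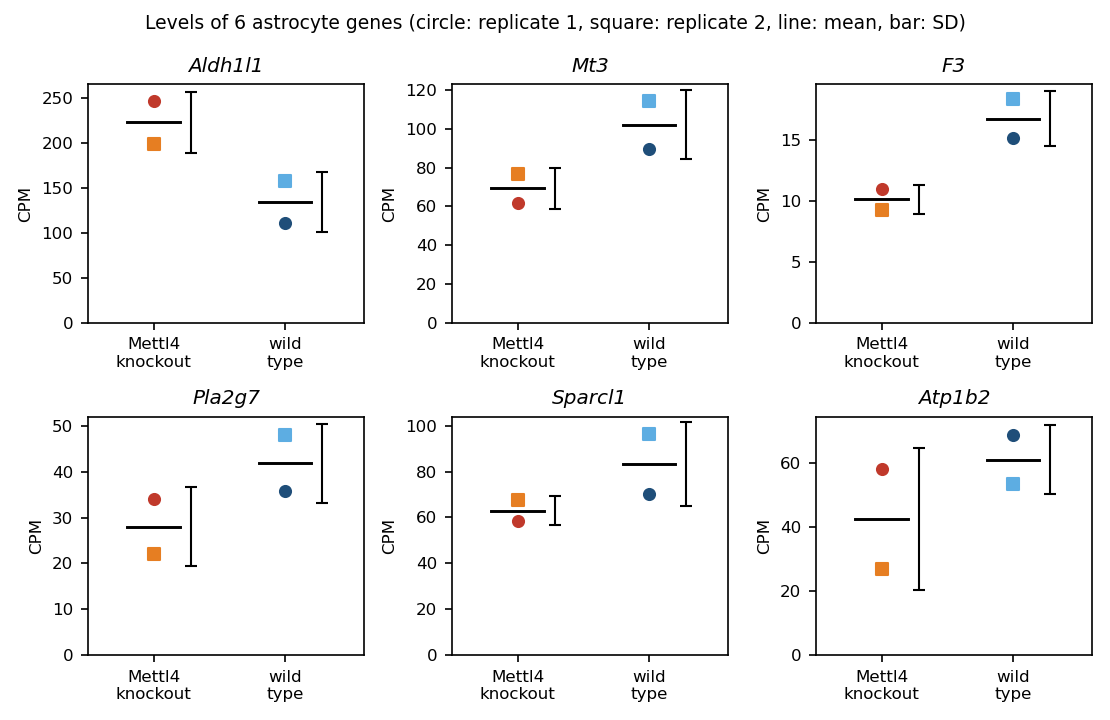
CPM of 6 astrocyte genes in the Mettl4 knockout (left) and the wild type (right), with circles for replicate 1, squares for replicate 2, a line for the mean and a bar for the SD (n = 2 each). Aldh1l1 is higher in both knockout libraries, Mt3, F3, Pla2g7 and Sparcl1 are lower in both, and Atp1b2 is low in knockout replicate 2 alone at 26.8 CPM.

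Many members differed in the same direction between libraries of the same genotype. Knockout replicate 2 was lower than knockout replicate 1 for 27 of the 33 members (all genes tested, 53.2%), with a median log2 difference of -0.27 (all genes, -0.031). Wild type replicate 2 was higher than wild type replicate 1 for 22 members (all genes, 49.9%), with a median log2 difference of 0.30 (all genes, -0.00094). Knockout replicate 2 was the lowest of the 4 libraries for 23 members, which is 69.7% of them, against 31.9% of all genes. Wild type replicate 2 was the highest library for 16 members, which is 48.5%, against 21.4% of all genes. With 4 libraries no correlation across samples is given. The spread of a member over the 4 libraries, as the SD of its log2 CPM, ranged from 0.029 for Nfib to 0.82 for Gfap, with a median of 0.29, beside 0.22 over all genes tested.

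Against its mean over the 4 libraries, the median member stood at 0.067 in knockout replicate 1, -0.24 in knockout replicate 2, 0.028 in wild type replicate 1 and 0.16 in wild type replicate 2, on the log2 scale. The same medians over all genes tested lay between -0.014 and 0.014. In knockout replicate 2, 28 of the 33 members were below their own mean, and the 5 exceptions were Aldh1l1, Scg3, Ttyh1, Cst3 and Nfib. The members highest in level kept the sum of all 34 steadier, at 3615 and 3169 CPM in the knockout libraries and 3560 and 3610 CPM in the wild type libraries.

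**Figure D4:**
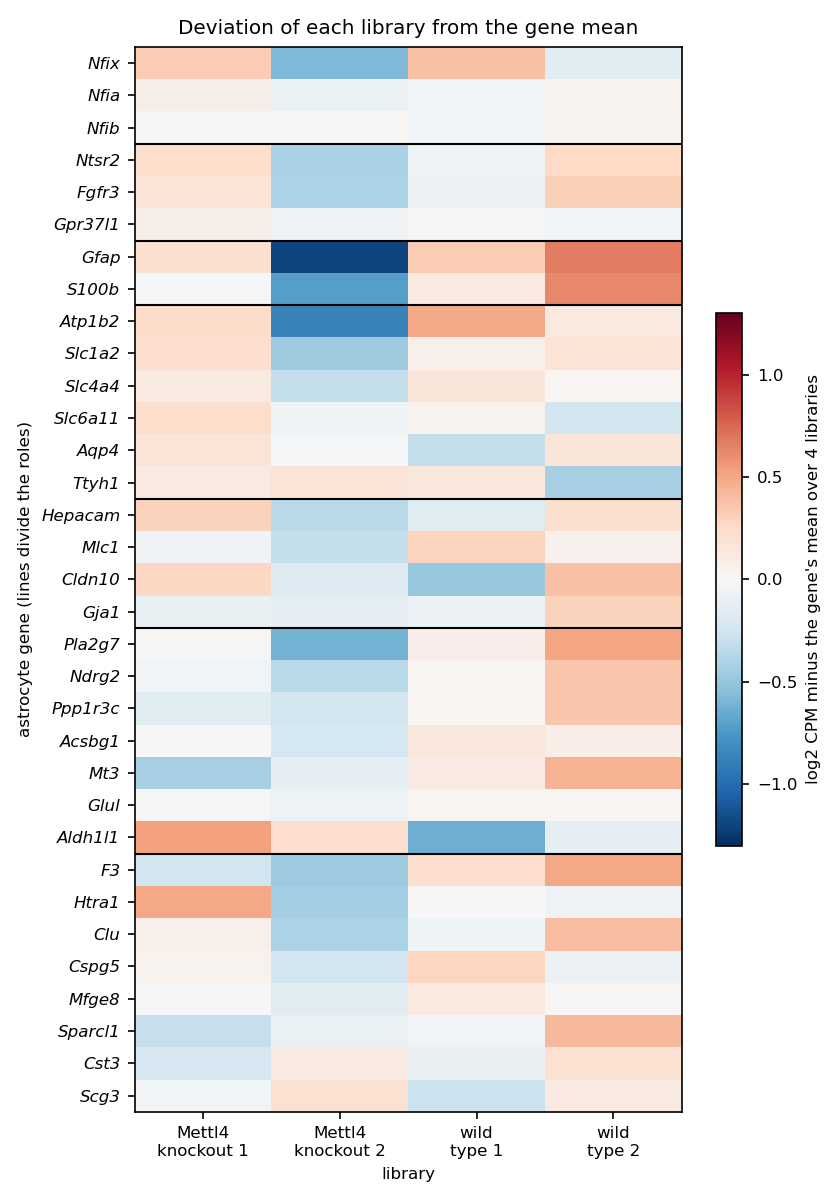
Log2 CPM of each of the 33 tested astrocyte genes minus its mean over the 4 libraries, with Mettl4 knockout libraries on the left, wild type libraries on the right and black lines between roles. The column of knockout replicate 2 is mostly blue (below the gene mean, 28 genes) and that of wild type replicate 2 mostly red (above it, 26 genes), with Aldh1l1 as the clearest case of another pattern.

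**Figure D5:**
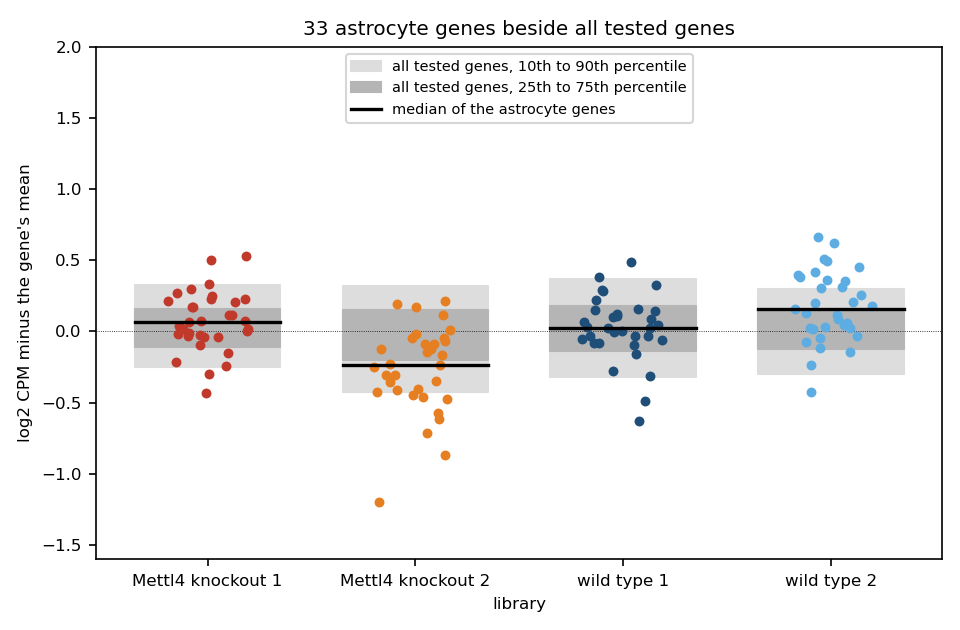
Deviation of each library from the gene mean on the log2 scale, with points for the 33 astrocyte genes, a black line for their median and grey bands for all 19912 tested genes. The astrocyte median lies at -0.24 in knockout replicate 2 and at 0.16 in wild type replicate 2, and near 0 in the other 2 libraries.

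Set library against library, more members lay below the wild type in knockout replicate 2 than in knockout replicate 1. The negative median also shrank without wild type replicate 2, as given below. Knockout replicate 2 was below wild type replicate 1 for 26 members (all genes, 52.6%) and below wild type replicate 2 for 29 members (all genes, 50.8%). Its median log2 differences were -0.27 and -0.43. Knockout replicate 1 was below wild type replicate 1 for 19 members (all genes, 50.5%) and below wild type replicate 2 for 20 members (all genes, 49.9%), with median log2 differences of -0.027 and -0.050. In fits that left out a library, the median log2 fold change of the members was -0.39 without knockout replicate 1, -0.016 without knockout replicate 2, -0.23 without wild type replicate 1 and -0.090 without wild type replicate 2. The number of members with a negative value was 26, 18, 27 and 20 in these fits, beside 25 with all 4 libraries. Members at an unadjusted p under 0.05 numbered 13 without knockout replicate 1 (8.32% of all genes), 4 without knockout replicate 2 (2.09%), 8 without wild type replicate 1 (2.66%) and 2 without wild type replicate 2 (4.01%). After adjustment, 1 member was called without knockout replicate 1 (all genes, 0.236%) and 0 without knockout replicate 2 (0.00502%), wild type replicate 1 (0.156%) or wild type replicate 2 (0.0854%). F3 and Mt3 had an unadjusted p under 0.05 in 3 of the 4 fits, each time except without wild type replicate 2, and Aldh1l1 in 3, each time except without wild type replicate 1.

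Knockout replicate 2 also stood apart in 2 genes outside the members. The hypoxia-responsive genes Pdk1 and Bnip3 are given here because earlier results were known. Pdk1 measured 11.9 and 39.6 CPM in the knockout libraries and 10.5 and 7.99 CPM in the wild type libraries, and Bnip3 16.9 and 40.6 CPM in the knockout libraries and 13.0 and 13.4 CPM in the wild type libraries. For both genes knockout replicate 2 was far above the other 3 libraries. Their part in the low astrocyte values of that library was not tested.

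Regulators of astrocyte formation were mostly present but showed no common direction. Of 39 such genes, 34 were tested. Of these, 0 were called by edgeR (all genes, 0.00502%), DESeq2 (0.0301%) or limma-voom (0.00502%). There were 16 positive and 18 negative values (all genes, 50.3% negative), and the median log2 fold change was -0.0035. Sox9, a transcription factor that turns radial glia towards glial fates, alone had an unadjusted p under 0.05 and was higher in the knockout (all genes, 1.15%). It measured 84.2 and 81.3 CPM in the knockout libraries, against 63.3 and 57.4 CPM in the wild type libraries (log2 fold change 0.46, SE 0.14, unadjusted p = 0.0090, edgeR adjusted p = 0.9999). Stat3, the transcription factor of the gliogenic cytokine pathway, measured 111 and 101 CPM in the knockout libraries and 108 and 87.2 CPM in the wild type libraries. The receptor subunit genes of that pathway, Lifr and Il6st, had log2 fold changes of -0.19 (SE 0.16 for Lifr, SE 0.14 for Il6st). The cytokine gene Bmp4 had 2 and 0 counts in the knockout libraries and 0 and 0 in the wild type libraries.

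Further astrocyte genes outside the members leaned the same way, with 19 of 27 tested values negative (all genes, 50.3%) and 8 positive. Their median was -0.12 on the log2 scale, 0 were called by edgeR, DESeq2 or limma-voom, and 3 lower (all genes, 1.62%) and 1 higher (all genes, 1.15%) had an unadjusted p under 0.05. The groups did not overlap in 11 genes that were lower in the knockout and in 2 that were higher, where 14.9% and 12.5% of all genes did so. Kcnj10, the potassium channel by which astrocytes buffer potassium, had the smallest p of them. It measured 16.4 and 20.6 CPM in the knockout libraries, against 32.8 and 38.7 CPM in the wild type libraries (log2 fold change -0.95, SE 0.20, 95% interval -1.39 to -0.52, unadjusted p = 0.00062, edgeR adjusted p = 0.9999). Among the fits that used 4 libraries, Kcnj10 was called without a low-count filter (all genes, 0.124%) and with the replicate block (all genes, 0.0452%). The apolipoprotein gene Apoe was lowest in knockout replicate 2. It measured 14.6 and 4.93 CPM in the knockout libraries and 16.2 and 18.8 CPM in the wild type libraries (log2 fold change -0.84, SE 0.42). The zinc transporter gene Slc39a12 measured 3.38 and 1.37 CPM in the knockout libraries and 3.32 and 7.13 CPM in the wild type libraries (log2 fold change -1.15, SE 0.47). The glypican gene Gpc5 measured 1.16 and 0.766 CPM in the knockout libraries and 1.36 and 2.68 CPM in the wild type libraries. As for the members, wild type replicate 2 was often the highest library, in 17 of the 27 genes (all genes, 21.4%), and knockout replicate 2 was the lowest in 12 (all genes, 31.9%). Sox9, Bmpr1b and Ptprz1 stand in this list and in the list of regulators. Fabp7, Slc1a3 and Ptprz1 stand in this list and among the neural stem cell markers below.

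Genes of reactive astrocytes were largely under the filter, with 16 of 29 tested. Lcn2, a strong marker of reactive astrocytes, was at 0 counts in 4 of 4 libraries, and the complement gene C3 had 1 and 2 counts in the knockout libraries and 1 and 1 counts in the wild type libraries. Of the tested genes, 11 had negative (all genes, 50.3%) and 5 positive values. The median log2 fold change was -0.21, with 0 calls by edgeR (all genes, 0.00502%). Gbp2, a guanylate-binding protein induced by interferon, was lower in the knockout at an unadjusted p under 0.05 (all genes, 1.62%). It measured 0.580 and 0.328 CPM in the knockout libraries and 0.981 and 1.77 CPM in the wild type libraries (log2 fold change -1.59, SE 0.57).

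Markers of other cells that such a culture could hold gave these values beside the astrocyte genes. The 18 neural stem and radial glia markers, 18 of them tested, summed to 9020 and 9569 CPM in the knockout libraries and 8801 and 9336 CPM in the wild type libraries. Fabp7 held 1830 and 2985 CPM of this in the knockout libraries and 1635 and 2118 CPM in the wild type libraries. It rose by more between the knockout replicates than the sum did. Knockout replicate 2 was lower than replicate 1 for 12 of the 18 (all genes, 53.2%). There were 7 positive and 11 negative values (all genes, 50.3% negative). Among these 18 markers the matrix protein gene Tnc had a log2 fold change of 0.33 and the glutamate transporter gene Slc1a3 one of -0.30. None was called by edgeR (0, all genes 0.00502%), with 0 at an unadjusted p under 0.05 (all genes, 2.77%). The 16 oligodendrocyte lineage markers, 13 of them tested, summed to 1616 and 1576 CPM in the knockout libraries and 1557 and 1445 CPM in the wild type libraries. Of the values, 10 were positive (all genes, 49.7%) and 3 negative, with a median of 0.26 on the log2 scale. Sox10 (log2 fold change 1.57), Gpr17 (1.04) and Cnp (0.39) were higher in the knockout at an unadjusted p under 0.05 (all genes, 1.15%). With 4 libraries, 0 were called by edgeR (all genes, 0.00502%). Sox10 was low in level, with 61 and 46 counts in the knockout libraries and 7 and 22 counts in the wild type libraries. Gpr17 measured 9.34 and 8.26 CPM in the knockout libraries and 2.57 and 5.85 CPM in the wild type libraries. The 17 neuron markers, 11 of them tested, summed to 1228 and 1415 CPM in the knockout libraries. In the wild type libraries they summed to 1103 and 1400 CPM. Map2 alone held 1110 and 1335 CPM of this in the knockout libraries and 999.7 and 1266 CPM in the wild type libraries. The sum thus mostly follows Map2 and does not measure neuron content. Dcx measured 6.49 and 3.12 CPM in the knockout libraries and 1.51 and 4.33 CPM in the wild type libraries. Of the tested values, 3 were positive and 8 negative (all genes, 50.3% negative), and their median was -0.17 on the log2 scale. Snap25 (-0.59), Dcx (0.69) and Syt1 (-0.43) had the smallest p, and 0 were called by edgeR (all genes, 0.00502%). Mapt (-0.46) was low in knockout replicate 2 alone, and its groups overlapped. It had 770 and 265 counts in the knockout libraries and 516 and 604 counts in the wild type libraries.

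Markers of microglia, vessels, mesenchyme and ependyma were low in sum. The 12 microglia markers summed to 8.02 and 6.84 CPM in the knockout libraries and 7.02 and 7.07 CPM in the wild type libraries, with 3 tested (P2ry12, Csf1r and Ptprc) and Tmem119, Itgam, C1qc and Trem2 at 0 counts in 4 of 4 libraries. The 9 endothelial markers summed to 5.07 and 5.15 CPM in the knockout libraries and 5.81 and 6.34 CPM in the wild type libraries, with 5 tested, among them Esam (-0.52), Tek (-0.25) and Kdr (-0.23), and Tie1 at 0 counts. The 11 mesenchymal and mural markers summed to 22.2 and 20.1 CPM in the knockout libraries and 33.4 and 28.4 CPM in the wild type libraries, with 3 tested and 0 called (all genes, 0.00502%). Among them Acta2 (log2 fold change -1.22) and Tagln (-1.16) were lower in the knockout at an unadjusted p under 0.05 (all genes, 1.62%). Foxc1 alone held 17.5 and 16.0 CPM of the sum in the knockout libraries and 22.7 and 20.9 CPM in the wild type libraries. The sum thus mostly follows Foxc1. The 7 ependymal markers summed to 14.4 and 12.1 CPM in the knockout libraries and 18.0 and 13.5 CPM in the wild type libraries, with 3 tested, Foxj1 (-0.29), Rarres2 (-0.35) and Cfap126 (0.54). The part of these cells in the astrocyte values was not tested.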

How the data were processed

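RNA was sequenced from 4 libraries, 2 Mettl4 knockout and 2 wild type, prepared from TRIzol-extracted RNA with a NEBNext Ultra kit, per the labels. The deposited values are raw whole-number counts per gene, 1 file per library. STAR 2.7.10, featureCounts and the build GRCm39 are named in the submitters' processing notes, while the sources used here do not give the annotation release, the strand setting or the handling of multi-mapped reads. Symbols were matched for 52081 of 55414 identifiers, and exon lengths and overlaps came from GENCODE vM21, on an earlier build, so no gene coordinates from it are given.

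Genes were filtered with filterByExpr (minimum count 10), scaled with TMM and fitted with edgeR 4.0.16 in R 4.3.3 (quasi-likelihood, robust=TRUE, no covariate), with Benjamini-Hochberg adjustment over 19912 genes and a threshold of 0.05. The size of each log2 fold change, divided by the square root of its F statistic, gave its standard error, and intervals cover 95%. The fit was tested on simulated data. Deviations use log2 CPM with a prior count of 2. Alternatives were DESeq2 1.42.0, limma-voom (limma 3.58.1), RLE factors, library totals alone, no low-count filter or 1 CPM in 2 libraries, robust=FALSE, a replicate block and leaving out each library. Replicates were not a single library deposited again (chi-square per degree of freedom 26.3 between the knockout libraries and 16.6 between the wild type libraries).

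The members, the other lists and the rule for named genes were chosen with earlier results of these data known. The rule names every member and gives values per library for those with an unadjusted p under 0.05, groups that do not overlap, a call under an alternative, or a level among the 8 highest per kb. From other lists it takes the genes with an unadjusted p under 0.05, or the 3 with the smallest p. Genes outside it (Stat3, Lifr, Il6st, Bmp4, Apoe, Lcn2, C3, Fabp7, Map2, Mapt, Foxc1 and markers at 0) were chosen after their values were seen. They are known regulators or markers, or make up much of a sum. A gene that the rule names among the neural stem cell markers is not reported here. No list was tested as a set.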

Additional observations from a re-analysis of the deposited data

How the results depend on the processing

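With 0 members called in the reported fit, the count was 1 without a low-count filter (Aldh1l1) and 1 without knockout replicate 1 (Atp1b2), so that fits without a library gave 0 to 1, and 0 in the other 10 alternatives. The median log2 fold change of the members, -0.19, ranged from -0.39 without knockout replicate 1 to -0.016 without knockout replicate 2, and from -0.21 to -0.18 in the alternatives that used 4 libraries. Leaving out a library shows how far 1 library carries a value, and the cause of its deviation was not tested. Of 396 values of single members under an alternative, 26 changed sign, in 14 genes, with 0 of these called. By scaling or filter these were Nfia (0.001 with RLE and with DESeq2) and Nfib (0.008 with RLE and with DESeq2, 0.006 without a filter). By leaving out a library, in 14 genes the range over the 4 fits spanned 0. The range was -0.582 to 0.094 for Slc1a2, -0.561 to 0.121 for Ntsr2, -0.401 to 0.021 for Slc4a4, -0.541 to 0.039 for Fgfr3, -0.717 to 0.191 for Nfix, -0.095 to 0.071 for Nfia and -0.388 to 0.258 for Hepacam, with the positive end reached without knockout replicate 2. It was -0.426 to 0.536 for Htra1 and -0.03 to 0.096 for Gpr37l1, negative without knockout replicate 1. It was -0.081 to 0.406 for Aqp4, -0.035 to 0.377 for Scg3 and -0.331 to 0.621 for Cldn10, negative without wild type replicate 1. It was -0.277 to 0.066 for Cst3 and -0.037 to 0.042 for Nfib, positive without wild type replicate 2. With the replicate number as a block, 0 members were called and the median was -0.21, while all genes called numbered 9 in place of 1. The deviations of libraries with the same number correlated at 0.228 over genes, and no label says that a number marks a shared source. The scaling moved the median of all genes by less than 0.02. Depth was too low to compare Gjb6.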
